A study of Homo sapiens with 4 samples.

Results

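The 10 genes described here encode the main heat shock proteins of the cytosol and of mitochondria: HSPA1A, HSPA1B, HSPA8, HSP90AA1, HSP90AB1, HSPH1, DNAJB1, HSPB1, HSPD1 and HSPE1. They were taken by name from a deposited table of 44578 transcripts and 23217 gene symbols, in which they account for 13 transcripts on the main chromosomes. The cells were LV-M100, a low-variability clone of the breast cancer line MDA-MB-231, so all libraries stem from 1 clone. Control cells received NC1 from IDT in siControl replicate 1 and the BLOCK-iT Fluorescent Oligo from Life Technologies in siControl replicate 2, and depleted cells received siSNRNP40 #1 or siSNRNP40 #2. All were transfected with Lipofectamine and extracted after 48 h, and RNA was sequenced after removal of ribosomal RNA. The comparison asks how these genes respond when SNRNP40, a component of the U5 particle of the spliceosome, is depleted. Each transcript has 1 FPKM value per condition (fragments scaled to the length of the transcript and to the size of the library), in which the 2 libraries of that condition are pooled. The spread between libraries and the sequencing depth are therefore unknown, no value below carries an error, and no difference was tested. Fewer cells with a transcript and less of it per cell cannot be told apart in such bulk samples.

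Heat shock proteins are chaperones that keep other proteins folded. HSP70 proteins bind unfolded stretches with the help of HSP40 cochaperones and of nucleotide exchange factors, HSP90 proteins finish the folding of kinases and receptors, small heat shock proteins hold unfolded proteins in solution, and HSPD1 with HSPE1 forms the folding chamber of the mitochondrial matrix. Many of these genes are switched on by heat shock factor 1, which binds repeats of the letters GAA in alternating orientation near the start of the gene. HSPA1A and HSPA1B have no introns, and such genes can be expressed when heat shock disturbs splicing, whereas HSPA8, the HSP70 made without stress, and the remaining members need the spliceosome.

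The promoters were searched for this binding element in the forms GAANNTTC and TTCNNGAA, each of which reads the same on both strands. RefSeq promoters run from 250 bases before the start of a gene to 50 after it, and all 16 listed for the 10 members occur once and unchanged in GRCh37. At least 1 of these motifs was present in 9 of the 16 member promoters, which belong to 8 of the 10 members, and in 10.5% of the 12345 promoters of expressed genes. Arrays of 3 units, in which both motifs overlap by 3 letters, were present in 4 of the 16 member promoters, those of HSPA8, HSP90AA1, HSP90AB1 and HSPD1, and in 0.397% of the promoters of expressed genes. HSPH1 and HSPE1 held neither motif in these windows. The array of HSPD1 lies within chr2:198364776-198364814, however, which is before the annotated start of HSPE1 at 198364864. That position is within 250 bases of this annotated start, yet the array was not found in the HSPE1 window searched. The RefSeq start that set this window is not given here, so HSPE1 cannot be said to lack the element. A match gives only the letters and does not show that the factor was bound. The GAANNTTC match closest before a listed RefSeq start site is printed below in capitals with its flanks, read along the gene. It shows the element in intronless and in spliced members. For HSP90AB1 that start site is an alternative one, and its matches lie inside intron 1 of the canonical transcript. On GRCh37 the windows lie at chr6:31783198-31783237 (HSPA1A, plus strand), chr6:31795394-31795433 (HSPA1B, plus), chr11:122932871-122932910 (HSPA8, minus), chr14:102553441-102553480 (HSP90AA1, minus), chr6:44215557-44215596 (HSP90AB1, plus), chr19:14629233-14629272 (DNAJB1, minus), chr7:75931792-75931831 (HSPB1, plus) and chr2:198364781-198364814 (HSPD1, minus).
HSPA1A: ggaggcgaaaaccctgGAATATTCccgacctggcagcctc
HSPA1B: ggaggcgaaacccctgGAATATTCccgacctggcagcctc
HSPA8: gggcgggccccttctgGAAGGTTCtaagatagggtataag
HSP90AA1: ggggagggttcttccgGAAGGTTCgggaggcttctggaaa
HSP90AB1: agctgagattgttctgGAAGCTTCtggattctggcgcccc
DNAJB1: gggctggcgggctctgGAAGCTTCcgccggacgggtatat
HSPB1: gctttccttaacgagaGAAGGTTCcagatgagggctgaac
HSPD1: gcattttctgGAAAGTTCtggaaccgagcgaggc

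The target of the siRNAs was lower in the depleted cells, with an FPKM for SNRNP40 of 40.4 in siControl and 6.12 in siSNRNP40. The mesenchymal genes VIM and CD44 that mark the MDA-MB-231 line were present in both conditions (750.1 and 733 FPKM for VIM, 115.9 and 141.3 for CD44). EPCAM was at 10.6 and 10 FPKM, ESR1 at 0.0199 and 0.0108, DES at 0.0424 and 0.104 and SNAP25 at 0.803 and 1.26, while PTPRC was listed at 0 in both. Low ESR1 and EPCAM had been expected, and values at or near 0 for PTPRC, DES and SNAP25. EPCAM was above the member HSPB1 (7.42 and 7.52), however, and SNAP25 averaged 1.03 FPKM.

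Most of the 10 heat shock genes had similar values in both conditions, while HSP90AA1 was 23.9% lower in siSNRNP40. The FPKM of the members, summed over the transcripts of each gene, spanned from HSPA8 to HSPB1 a ratio of 217.9 in siControl and 204.8 in siSNRNP40. All 10 genes held the same place in the order of levels in both conditions. The log2 ratio of siSNRNP40 to siControl ran from -0.39 for HSP90AA1 to 0.13 for HSP90AB1. It was above 0 for 5 genes and below 0 for 5, with a median of -0.033. Across the 12334 gene symbols called expressed here, those whose FPKM averaged at least 1 over the conditions, the median was 0.0034, and 50.5% were above 0.

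Of the 10 members 0 passed an absolute log2 ratio of 1, a 2-fold difference, against 1.47% of all expressed genes. At a smaller log2 ratio of 0.5, 0 members were higher and 0 were lower, against 5.24% and 5.06% of all expressed genes. With 10 members each of these shares amounts to less than 1 gene, so the absence of members past the limit is not a result about them. Within 0.25 of 0 lay 9 of the 10 members and 66.3% of all expressed genes. Together the members contributed an FPKM of 3424 in siControl and 3258 in siSNRNP40, which is 0.664% and 0.63% of the FPKM of all genes.

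**Figure D1:**
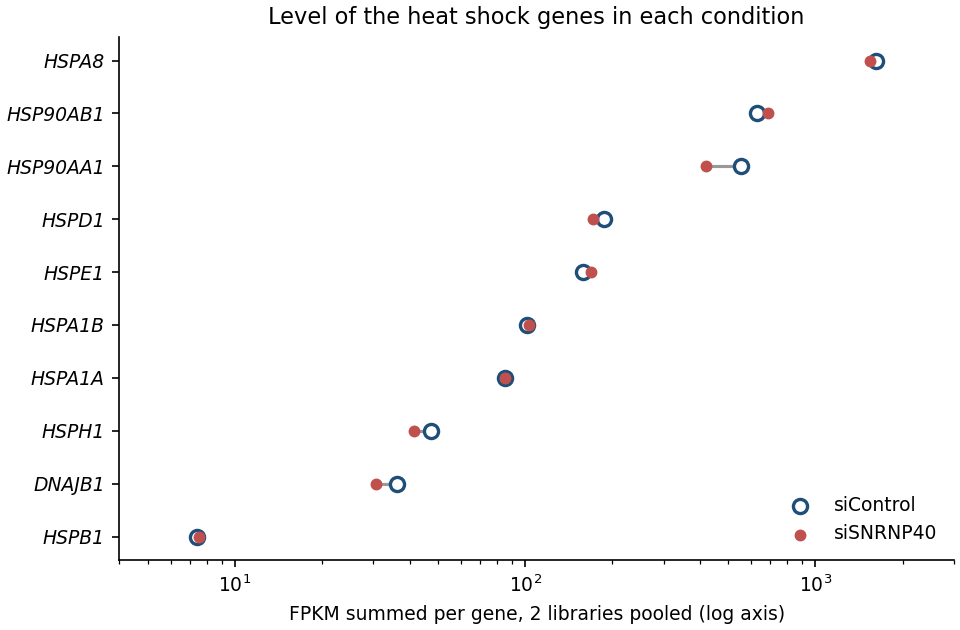
Summed FPKM of each heat shock gene on a log axis, with an open circle for siControl and a filled circle for siSNRNP40, each pooled from 2 libraries. The circles nearly coincide for HSPA1A, HSPA1B and HSPB1 and stand farthest apart for HSP90AA1 (554.4 and 421.7 FPKM).

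**Figure D2:**
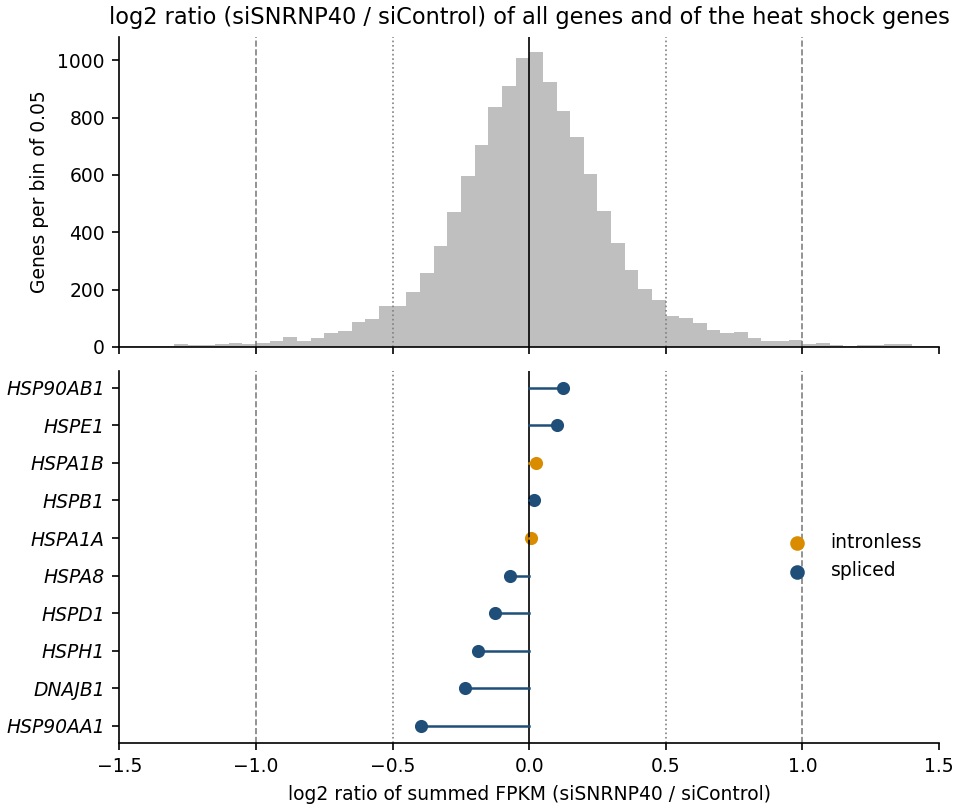
Upper panel, number of expressed genes per bin of log2 ratio (siSNRNP40 over siControl), leaving out 18 genes below and 36 above the axis. Lower panel, the log2 ratio of each heat shock gene, orange for the intronless and blue for the spliced members, all between the dotted lines at an absolute log2 ratio of 0.5 and inside the dashed lines at 1.

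HSPA8, the constitutive cytosolic HSP70 that also uncoats clathrin vesicles, was the most abundant member and ranked 23 among all expressed genes by mean FPKM. It lies on chromosome 11 of GRCh37 from 122928197 to 122933938, and its canonical transcript has 9 exons. Its summed FPKM was 1617 in siControl and 1540 in siSNRNP40, a log2 ratio of -0.071. The stress-inducible HSP70 genes HSPA1A (chromosome 6, 31783320 to 31785723) and HSPA1B (chromosome 6, 31795515 to 31798031) each have a single exon. HSPA1A had an FPKM of 85.2 in siControl and 85.5 in siSNRNP40, a log2 ratio of 0.0053. HSPA1B had 101.2 and 102.9, a log2 ratio of 0.024. Both intronless genes thus had nearly equal values in the 2 conditions, and 98.2% (HSPA1A) and 92% (HSPA1B) of all expressed genes lay at least as far from 0. The ratio of HSPA8 to the sum of HSPA1A and HSPA1B was 8.67 in siControl and 8.17 in siSNRNP40.

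The division of reads between HSPA1A and HSPA1B is uncertain. Their coding sequences are both 1923 bases long and differ at 4 positions, an identity of 99.8%, and the first 1709 coding bases are the same. A stretch of 60 coding bases that holds 2 of these positions is printed to show how little separates the genes. It covers coding bases 1846 to 1905, counted from 1 at the start codon, at chr6:31785379-31785438 for HSPA1A and chr6:31797573-31797632 for HSPA1B on the plus strand of GRCh37, with the differing bases G1860C and C1905T (HSPA1A first) in capitals.
HSPA1A: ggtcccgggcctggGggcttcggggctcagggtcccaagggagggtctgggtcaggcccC
HSPA1B: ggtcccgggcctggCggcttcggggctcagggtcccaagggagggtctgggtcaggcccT
Of the windows of 50 bases in the HSPA1A transcript, 75.1% occur unchanged elsewhere in GRCh37, and for HSPA1B 71.6% do. With both genes summed, the log2 ratio was 0.016, a value that depends little on how their reads were divided. The deposited table also lists HSPA1A and HSPA1B in 8 rows on alternative chromosome 6 haplotypes, all at an FPKM of 0. Their neighbour HSPA1L, which shares 2.59% of the HSPA1A windows and is known from testis, was at 0.984 and 0.936. An annotated long noncoding RNA, ENSG00000285565, covers 1421 bases of the HSPA1B exon on the same strand and was not separated from it here.

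DNAJB1 and HSPH1, the partners of cytosolic HSP70 among the members, had lower values in the depleted cells. DNAJB1, the HSP40 protein that hands unfolded clients to HSP70, had an FPKM of 36.2 in siControl and 30.8 in siSNRNP40, a log2 ratio of -0.23. It has 3 exons and lies on chromosome 19 from 14625581 to 14671203. HSPH1, an HSP110 protein that releases ADP from HSP70, had 47.4 and 41.6, a log2 ratio of -0.19. It lies on chromosome 13 from 31709110 to 31736525 and has 18 exons, the most among the members. A value at least as far from 0 was found for 36.8% of expressed genes in the case of DNAJB1 and for 46.1% in the case of HSPH1. Among genes with a mean FPKM within 2-fold of theirs, the shares were 27.5% for DNAJB1 and 36.6% for HSPH1. Per unit of HSPA8, the level of DNAJB1 went from 0.0224 to 0.02 and that of HSPH1 from 0.0293 to 0.027.

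Because an siRNA can lower other transcripts that match its seed, the 3' UTRs of the members were searched for the seed sites of the siRNAs. The strands given for the siRNAs are printed here 5' to 3', with the 7 bases that would pair with positions 2 to 8 of an exactly complementary guide in capitals.
siSNRNP40 #1: ggaauagacaAUGAUAUc
siSNRNP40 #2: ggauuugaccGACUGAUa
The site of siSNRNP40 #1 was in the 3' UTR of 0 of the 10 members and of 12.4% of 10027 expressed coding genes. The site of siSNRNP40 #2 was in DNAJB1 alone among the members and in 9.03% of the coding genes. Genes with the site had a median log2 ratio of -0.088 for #1 and -0.052 for #2. For comparison, the median was -0.0045 for all expressed coding genes with at least 2 exons and 0.041 for those with a single exon. The length of the 3' UTR was not taken into account, and these medians were not tested. Whether the site has a part in the value of DNAJB1 was not tested, and pooling the libraries leaves no value for each siRNA.

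The HSP90 genes HSP90AA1 and HSP90AB1 gave the lowest and the highest log2 ratio of the members. HSP90AA1, the stress-responsive HSP90 of the cytosol (chromosome 14, 102547079 to 102606036, 11 exons), had an FPKM of 554.4 in siControl and 421.7 in siSNRNP40. This is a log2 ratio of -0.39, a decrease of 23.9%. HSP90AB1, the HSP90 made at a steady level (chromosome 6, 44213903 to 44221625, 12 exons), had 630.7 and 688, a log2 ratio of 0.13. The level of HSP90AA1 relative to HSP90AB1, which does not depend on the scaling between conditions, went from 0.879 to 0.613. Of all expressed genes 16.4% were at least as far from 0 as HSP90AA1, and of the 209 genes with a mean FPKM within 2-fold of it 10.5% were. For HSP90AB1 the shares were 61.7% and 46.7%. The coding sequences of the pair are identical at 76.1% of 2172 aligned bases. Nevertheless, 24.6% of the 50-base windows of HSP90AA1 and 22.5% of those of HSP90AB1 occur elsewhere in GRCh37.

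HSP90AA1 and HSP90AB1 have mostly short introns, with a median length of 294 and 186 bases. In splicing, a loop of the U5 RNA contacts the exon bases next to the splice sites, so the ends of the exons were compared. The last exon base was G at 70% of the 10 introns of HSP90AA1, at 72.7% of the 11 introns of HSP90AB1, at 81.2% of the 64 introns of the members and at 81.1% of 108273 introns of expressed coding genes. The first and last donor sites of each gene are shown to let the pair be compared, with 10 exon bases in lower case and 10 intron bases in capitals, on GRCh37 at chr14:102553313-102553332 and chr14:102548438-102548457 (minus strand), and at chr6:44214923-44214942 and chr6:44221106-44221125 (plus strand).
HSP90AA1 intron 1: cttagccaagGTGACGGGTG
HSP90AA1 intron 10: cttggtctggGTAAGCCTTA
HSP90AB1 intron 1: tcttttcaagGTAAGGCTGA
HSP90AB1 intron 11: ctaggtctagGTAAGTAGCT
Introns that begin with GTAAG or GTGAG made up 60% of those of HSP90AA1, 54.5% of those of HSP90AB1, 48.4% over the members and 53.5% over expressed coding genes. Whether features of the donor sites go with the log2 ratios was not tested.

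HSPB1, the small heat shock protein HSP27, had the lowest level of the members, with an FPKM of 7.42 in siControl and 7.52 in siSNRNP40 and a log2 ratio of 0.019. It lies on chromosome 7 from 75931990 to 75933612 and has 3 exons. Although it is spliced, its values were as close as those of the intronless pair.

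The mitochondrial chaperonin genes lie on opposite strands of chromosome 2. A listed RefSeq start of HSPD1 and the annotated start of HSPE1 lie head to head, with the array described above between them. The full annotated span of HSPD1, however, contains HSPE1. HSPD1, the HSP60 subunit of the folding chamber (198351308 to 198381461, 12 exons), had an FPKM of 186.8 in siControl and 171.4 in siSNRNP40, a log2 ratio of -0.12. HSPE1, the HSP10 lid of that chamber (198364864 to 198368173, 4 exons), had 157.7 and 169.3, a log2 ratio of 0.1. The pair thus differed in sign, and its levels came to lie almost level, from a ratio of HSPD1 to HSPE1 of 1.18 in siControl to 1.01 in siSNRNP40. A read-through transcript, HSPE1-MOB4, was listed at 0.0616 FPKM in siControl and at 0 in siSNRNP40. The 557 exon bases of HSPE1 also lie within the annotated span of HSPD1 on the opposite strand, and 523 of them within HSPE1-MOB4 on the same strand. Both genes have near copies in the genome, since 41.3% of the 50-base windows of HSPD1 and 37.2% of those of HSPE1 occur elsewhere. For HSPD1, matches per window were most frequent within CDH12 (28.7%), then HSPD1P1 (18.4%) and HSPD1P4 (11.2%). For HSPE1 they were most frequent within CRTC3 and CRTC3-AS1 (20.1% each), then HSPE1P2 and WDR89 (16.1% each). A match inside overlapping annotated genes counted for each, so these shares do not add up. CDH12 itself was listed at 0.447 and 0.349 FPKM, CRTC3 at 1.84 and 1.91 and WDR89 at 13.3 and 12.9. The level of such a gene does not show whether the copy inside it gives reads.

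Alternative transcripts contributed little to these values. There was 1 listed transcript for 7 of the members and 2 for HSPA8, HSP90AA1 and HSPD1. The minor HSPA8 transcript made up 0.64% and 0.614% of the gene, at an FPKM of 10.3 in siControl and 9.45 in siSNRNP40. The minor HSP90AA1 transcript was at 0.705 and 1.16, below a mean of 1, and made up 0.127% and 0.276% of the gene. The minor HSPD1 transcript went from an FPKM of 3.4 to 1.57, a log2 ratio of -1.11, and its share of the gene from 1.82% to 0.918%. It was the only 1 of 12 member transcripts averaging at least 1 FPKM that passed an absolute log2 ratio of 1, against 10.5% of all such transcripts in the table. The table gives no exon structure for these transcripts, so their differences could not be examined.

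Members with and without introns were then set side by side. The median log2 ratio was 0.015 for HSPA1A and HSPA1B and -0.097 for the 8 spliced members, of which 3 lay above 0 and 5 below, a difference of 0.11. For comparison, the 169 expressed coding genes with a single exon had a median of 0.041 (quartiles -0.15 and 0.25), and the 9858 with at least 2 exons had -0.0045 (quartiles -0.17 and 0.16), a difference of 0.045. The median was 0.036 for genes with 2 to 4 exons and -0.012 for genes with 5 or more. The intronless members lay below the median of single-exon genes, and 2 spliced members, HSP90AB1 and HSPE1, lay above both intronless genes. As reads of HSPA1A and HSPA1B may be exchanged, their values are not independent of each other.

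**Figure D3:**
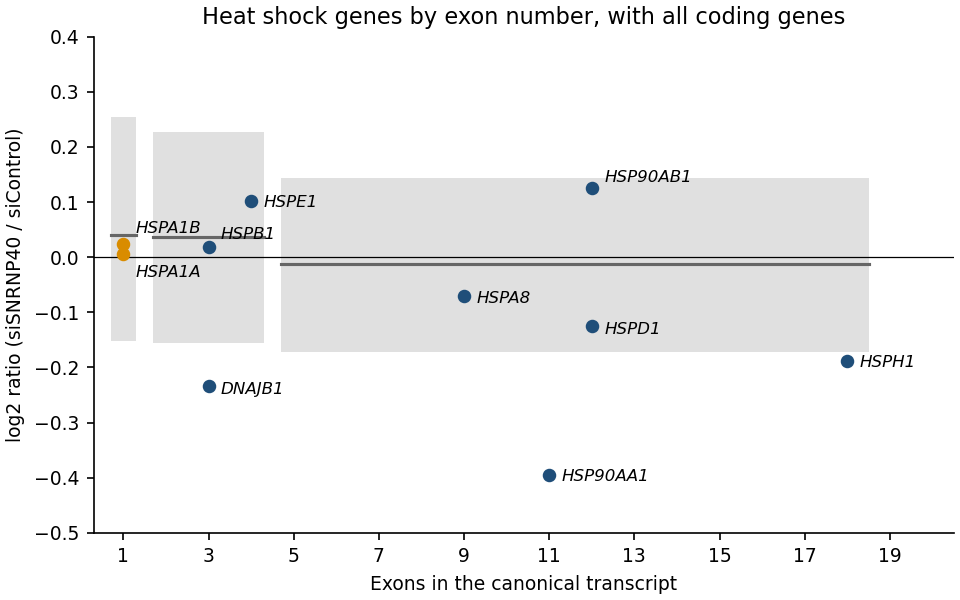
Log2 ratio (siSNRNP40 over siControl) of each heat shock gene against the exons of its canonical transcript, orange for intronless and blue for spliced members. Grey bands are the quartiles and grey lines the medians of all expressed coding genes with 1, 2 to 4, and 5 or more exons, and HSP90AA1, HSPH1 and DNAJB1 lie below their band.

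The wider chaperone network was followed in a list of 85 genes, of which 71 were expressed. Their median log2 ratio was -0.062, with 24 above 0 and 47 below, against 50.5% above 0 among all expressed genes. Of these 71 genes 0 passed 0.5 on the higher side and 2 on the lower side, both HSP40 genes. DNAJB4 had an FPKM of 21.6 in siControl and 12.2 in siSNRNP40 (log2 ratio -0.82), and DNAJB14, whose protein sits in the membrane of the endoplasmic reticulum, had 28.1 and 18.1 (-0.63). Of all expressed genes, 5.24% passed 0.5 on the higher side, 5.06% passed it on the lower side and 49.5% lay below 0. The count of the list on the lower side was 4 when the most expressed transcript stood for each gene. All genes were not counted in that setting. Whether the list differs from all expressed genes was not tested.

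The transcription factors of the response had unequal ratios. HSF1, the factor that heat activates, had an FPKM of 9.27 in siControl and 9.4 in siSNRNP40 (log2 ratio 0.021), and HSF2, a related factor, had 13.6 and 10.5 (-0.37). HSBP1, a small protein that binds HSF1, had 69.3 and 61.2 (-0.18). Among other HSP70 genes, the mitochondrial HSPA9 had 238.1 and 264.3 (0.15) and HSPA4 had 188.3 and 175.6 (-0.1). The strictly inducible HSPA6 was listed at 0.182 and 0.0693, and the small heat shock protein CRYAB at 0 in both conditions. The sole member of the small heat shock list that was expressed was HSPB11 (98.6 and 78, log2 ratio -0.34), which is known as a component of intraflagellar transport.

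HSP90 cochaperones lay on both sides of 0, with 7 of 15 above. AHSA1, which speeds the ATPase of HSP90, had the highest log2 ratio of the 71 expressed genes (149.7 and 176.5 FPKM, 0.24), followed by CDC37, which brings kinases to HSP90 (179.3 and 208.2, 0.22). CHORDC1 was lowest (24.6 and 18.7, -0.4). Nucleotide exchange factors of HSP70 ranged from BAG2 (57.2 and 42.1, -0.44) to BAG1 (13 and 15, 0.21), and BAG3, a target of heat shock factor 1, was at 24.6 and 25.5 (0.051).

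The 14 genes of the TRiC chaperonin and of prefoldin, which fold actin and tubulin, lay between -0.29 (PFDN4) and 0.083 (PFDN6), with 4 above 0 and 10 below and a median of -0.057, and their most abundant gene CCT5 had 291.7 and 282 FPKM (-0.049). CCT8 had 243.9 and 250.3 (0.037). The 8 mitochondrial chaperones and proteases had a median of 0.022 and a highest value of 0.19 for TRAP1, the mitochondrial HSP90 (20.9 and 23.8). DNAJA1, the most abundant HSP40, had 339.5 and 313.6 (-0.11). The polyubiquitin gene UBB, which heat also raises, had 758.9 and 625.3 (-0.28).

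**Figure D4:**
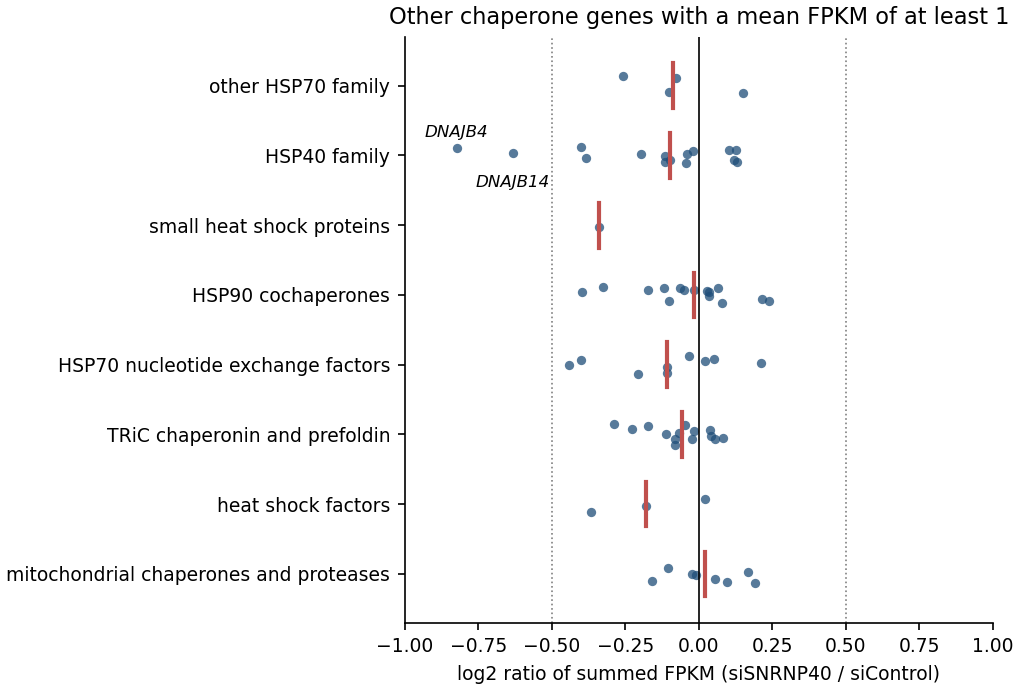
Log2 ratio (siSNRNP40 over siControl) of the other expressed chaperone genes in 8 groups (the ubiquitin group of the list is not drawn), a dot for each gene, with a red line at the median of each group and dotted lines at an absolute log2 ratio of 0.5. DNAJB4 (-0.82) and DNAJB14 (-0.63) are the only dots beyond a dotted line.

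How far reads of the members could have come from other places was measured by the share of their sequence that is not unique. The share of 50-base windows found elsewhere ran from 0.212% for HSPH1 and 4.29% for DNAJB1, through 16.6% for HSPB1 and 23.2% for HSPA8, to 75.1% for HSPA1A. The length of the sequenced reads is not given in the sources used here, and longer reads would be unique more often. The windows were matched exactly, however, so near copies that differ within a window were not counted. In DNAJB1, 259 exon bases of the canonical transcript also lie within TECR on the opposite strand, and whether counting used strand is not given in the sources used here.

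**Figure D5:**
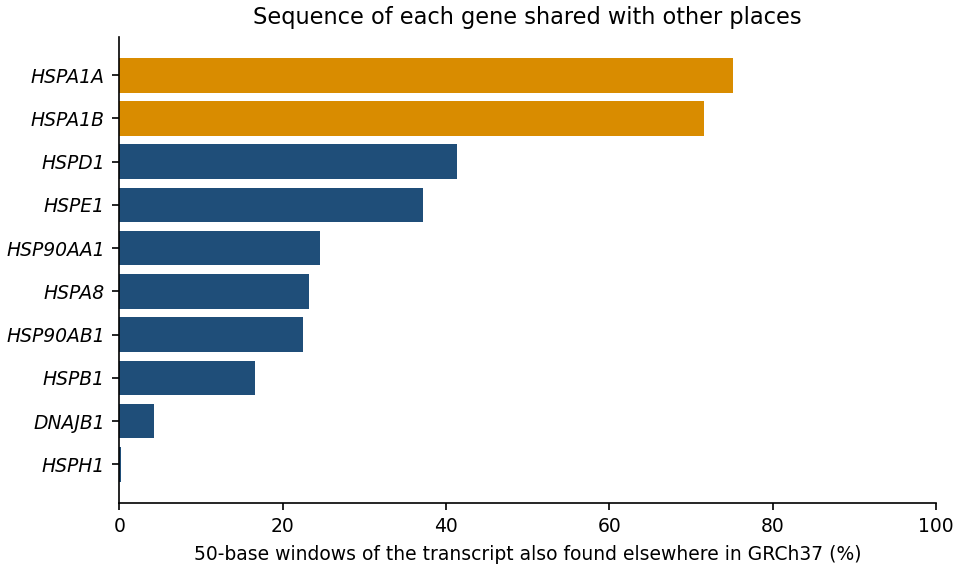
Share in percent of the 50-base windows of each canonical transcript that also occur outside the gene on either strand of GRCh37, orange for intronless and blue for spliced members. HSPA1A (75.1%) and HSPA1B (71.6%) stand highest and HSPH1 (0.212%) lowest.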

How the data were processed

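RNA was sequenced in 4 libraries, 2 per condition, which the authors pooled by condition. According to the methods and processing notes, reads were trimmed (cutadapt 1.2.1), mapped to hg19 (TopHat 2.0.8), assembled (Cufflinks, cuffmerge) and compared (cuffdiff 2.0.2). The deposited FPKM values are estimates of cuffdiff for single transcripts. The same table holds a comparison by the authors (fold change, test statistic, p and q), which was not used.

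FPKM was summed per gene symbol over transcripts on the main chromosomes, and log2 ratios were taken without a pseudocount. Background counts used 12334 symbols that averaged at least 1 FPKM and had a finite ratio. The members and lists were chosen with earlier results of these data known. Named genes are all members, the most abundant genes of the wider list (except 1 that is not reported here), those past an absolute log2 ratio of 0.5, and SNRNP40; the extremes of groups and genes with a known role in the response (HSF1, HSF2, HSBP1, HSPA4, HSPA6, CRYAB, BAG3, CDC37, TRAP1) were named after their values were seen, as were the range within 2-fold of a mean and the sequence features. Exon numbers and positions came from GENCODE 44 on GRCh37, which has the coordinates of hg19, and promoters from RefSeq (table build GRCh38.p14), placed on GRCh37 by exact match. Of the expressed symbols, 81.3% matched a coding gene. Scripts ran under Python 3.11.15 with Biopython 1.88, pandas 2.3.3 and numpy 2.4.6, and the summing and counting steps were tested on simulated data. With 1 pooled value per condition, no test was run, and the alternatives are given with the closing observations.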

Additional observations from a re-analysis of the deposited data

How the results depend on the processing

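No paired analysis was possible because cuffdiff gave a single pooled FPKM per condition. Leaving out a replicate was likewise not run. Depth is unknown, so its limits cannot be stated.

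The log2 ratios of single members were computed under 7 alternative settings and with listed HSP90 pseudogenes added, an alternative chosen after the data were seen. All 78 values moved by less than 0.1, the largest move being 0.031, and 0 changed sign. Many of them could not move, because the contig rows are at 0 and all member transcripts are above 0 in both conditions. In addition, 7 members have 1 listed transcript, and centring and upper-quartile scaling shift all genes alike. These settings therefore say little about how stable the values are. The median of the members lay between -0.071 and -0.0023 and the difference between intronless and spliced members between 0.105 and 0.113. The number of members past either limit was 0 throughout.

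Counts over all genes depended on the expression filter. Past an absolute log2 ratio of 1, above 0.5 and below -0.5 there were 181, 646 and 624 genes. These became 74, 343 and 368 with a pseudocount of 1, 857, 1543 and 1305 when genes averaging 0.1 FPKM or more were kept, 49, 209 and 292 when 5 FPKM was required, and 1870, 2272 and 1911 without a filter. The filters admitted 15582, 8559 and 17354 genes in place of 12334. In the wider list the 2 genes below -0.5 became 4 when the most expressed transcript stood for each gene, and its other counts changed by less than 1.5 times.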

Other observations

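Pseudogenes of the HSP90 genes are listed beside them. HSP90AB2P had an FPKM of 82.2 in siControl and 85.6 in siSNRNP40, HSP90AB3P 8.34 and 7.74, and HSP90AB4P 0.924 and 1.37. HSP90AB2P thus stood at the level of HSPA1A, although only 3.55% of the 50-base windows of HSP90AB1 occur in it unchanged, while HSP90AB3P, with 16.3%, was lower. The source of these reads was not tested. HSP90AA4P was at 0.558 and 0.165 and HSP90AA6P at 0.776 and 0.121. Both were lower in the depleted cells, but both averaged below the filter of 1 FPKM used here.

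In the wider list, transcripts of a gene moved apart in DNAJB6, an HSP40 gene, and in HSF2. The most expressed DNAJB6 transcript went from 85.7 to 56.9 FPKM (log2 ratio -0.59) and the other from 55 to 65.9 (0.26), while their sum had a log2 ratio of -0.2. The most expressed HSF2 transcript went from 7.98 to 4.7 (-0.76), and a further transcript from 5.61 to 5.51 (-0.027). These genes were chosen after their values were seen, and cuffdiff divides reads between overlapping transcripts by a model, whose part in the shifts was not tested.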
